A study of Brassica napus with 10 samples.

Results

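Single-exon genes are genes whose annotated transcript lies in 1 uninterrupted exon, so that their RNA has no intron to remove. Of the 59458 genes in the deposited count table, which follows the *B. napus* Darmor-bzh annotation (version 10), 11558 (19.4%) were listed with 1 exon. The other 47900 had 2 or more. Shares, neighbours and overlaps below refer to the genes in that table, and annotated genes outside it do not enter. Membership came from the annotation alone and used no measured value. The question was how the RNA of single-exon genes differed between embryogenic structures and pollen and between TSA doses, set against genes of 2 or more exons of the same length and level, and between A and C chromosomes.

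Most plant genes carry introns, which the spliceosome removes before the mRNA leaves the nucleus. Single-exon genes skip this step. In plants they include much of the core histone, SAUR (small auxin-induced proteins), pentatricopeptide repeat and F-box families, and some arose as copies of spliced RNA. *B. napus* carries an A subgenome from *B. rapa* and a C subgenome from *B. oleracea*, so that many of its genes are present as an A and a C copy. The deposited tables pair these gene IDs with no names, and 0 IDs matched the reference gene table used here, so no family or role is given to any gene below. Of 71 IDs on the study's list of ER stress genes, 52 were in the count table, 0 of them single-exon and 8 of 2 exons.

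RNA was measured in 10 libraries of *B. napus* DH12075 microspore cultures after 3 days, all carrying the *pLEC1:LEC1-GFP* reporter, in which a marker of embryo identity is driven by its own promoter. The HS + TSAhigh group (3 libraries) received heat stress at 33 °C for 24 h with 0.5 µM trichostatin A (TSA), an inhibitor of histone deacetylases. The HS + TSAlow group (4 libraries) received the same heat stress with 0.05 µM TSA, and both went on at 25 °C and were sorted for GFP. The pollen group (3 libraries) was kept at 18 °C with the solvent DMSO and was not sorted. Sorted cells were pooled to 150000 per library, and pollen libraries held as many. Heat stress, TSA, sorting and later temperature change together in each comparison with pollen, and their parts cannot be told apart. In bulk RNA, fewer cells of a type and less RNA per cell cannot be told apart either. The labelled cell types were not checked against marker genes, because the IDs carry no names.

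Single-exon genes were shorter than the others. Their exon length had a median of 844 bases (10th to 90th percentile 354 to 1834, range 108 to 10963), against 1345.5 bases (560 to 2734) in genes of 2 or more exons. They made up 18.7% of the A genes in the count table (5109 genes) and 20.0% of its C genes (6277 genes), with 172 more on unplaced scaffolds. Among the 19 chromosomes the share ran from 17.2% on A06 to 22.2% on C04. Their strands were balanced, with 50.4% on the plus strand. Only 466 (4.03%) overlapped another gene, and 93 of these lay within an intron of a host gene. In the order of the genes counted, at any distance, 4509 single-exon genes (39.0%) had another on at least 1 side, and 1623 stood in 466 runs of 3 or more. Single-exon genes were 19.4% of all genes, and the share with such a neighbour in a random order was not worked out. The longest run held 17 genes of 375 to 376 bases, all on the plus strand, at C09:31024950-31077256, and all 17 had 0 counts in every library. Reads that match several copies can be lost or shared between them in counting, and how they were treated is not given in the sources used here, so values of single genes within runs are uncertain.

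Library totals over genes were 58468526 to 67884748 counts in HS + TSAhigh, 51838498 to 61458274 in HS + TSAlow and 93367646 to 109105528 in pollen. Libraries 1 and 4 of HS + TSAlow resembled each other (Pearson r over genes of 0.9921 on log2(CPM + 1), where CPM is the usual scaling of a count by its library total) more than they resembled libraries 2 and 3 (0.9475 to 0.9523). Over single-exon genes they differed by more than counting noise (chi-square per degree of freedom of 8.63, against 27.0 to 125.0 in the other pairs of 1 group). PCR copies also add to such a difference, so this value does not show whether the 2 libraries are independent. They were kept as separate replicates, as labelled, and counts without both are given for the dose comparison. In HS + TSAhigh, library 1 stood apart from libraries 2 and 3 (r of 0.9338 and 0.9184, against 0.9699 between 2 and 3).

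A larger part of the counts fell in single-exon genes in the embryogenic structures than in pollen. The share was 10.8%, 11.8% and 12% in the 3 HS + TSAhigh libraries, 12.4%, 12.5%, 11.3% and 11.9% in the 4 HS + TSAlow libraries, and 8.29%, 7.73% and 7.85% in the 3 pollen libraries. All 7 HS + TSA libraries were above all 3 pollen libraries, and the doses overlapped. The means were 11.5% ± 0.687 (SD, n = 3) in HS + TSAhigh, 12% ± 0.559 (SD, n = 4) in HS + TSAlow and 7.96% ± 0.297 (SD, n = 3) in pollen. Counting error was far smaller than this spread, with a 95% Wilson interval of 10.75% to 10.77% in HS + TSAhigh library 1. Without the 10 most abundant single-exon genes the means were 10.4% in HS + TSAhigh, 10.6% in HS + TSAlow and 7.47% in pollen, and without the runs of 3 or more they were 9.69%, 9.87% and 6.79% in the same order. The gain was spread over many genes. Between HS + TSAhigh and pollen, 5898 members had a higher and 3575 a lower mean, the 10 largest gains made 15.2% of the summed gain, and 149 genes were needed to reach 50 percent of it. Between HS + TSAlow and pollen, 5961 were higher and 3474 lower, the 10 largest gains made 16.5%, and 118 genes were needed.

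**Figure D1:**
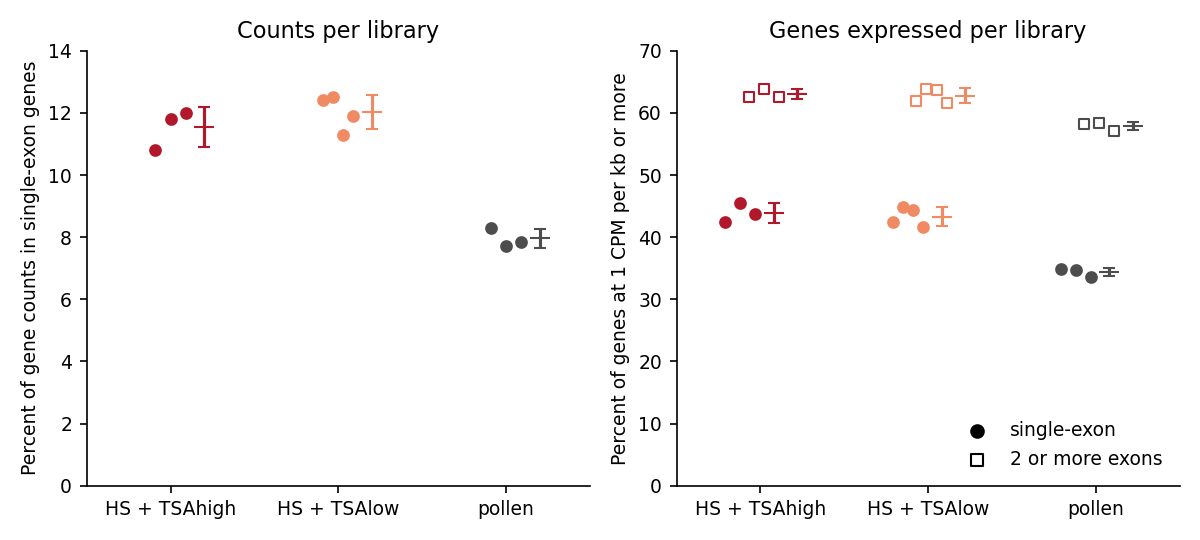
Left, percent of each library's gene counts that fell in single-exon genes. Right, percent of single-exon genes (circles) and of genes of 2 or more exons (squares) at 1 CPM per kilobase of exon or more in each library. Points are libraries and bars the mean ± SD of each group, and all HS + TSA libraries (10.8% to 12.5% of counts) lie above all pollen libraries (7.73% to 8.29%).

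Fewer single-exon genes than other genes were expressed, and their number was lower in pollen. A gene was called expressed where its group mean reached 1 CPM per kilobase of exon after TMM scaling (edgeR's scaling of library sizes). By this measure 5225 single-exon genes (45.2%) were expressed in HS + TSAhigh, 5112 (44.2%) in HS + TSAlow and 4018 (34.8%) in pollen. Per library the share was 43.9% ± 1.56 (SD, n = 3), 43.3% ± 1.53 (SD, n = 4) and 34.4% ± 0.723 (SD, n = 3) in the same order, and no HS + TSA library overlapped a pollen library. Of genes of 2 or more exons, 64.1% were expressed in HS + TSAhigh, 63.7% in HS + TSAlow and 58.1% in pollen. Weighted to the length classes of the single-exon genes, these became 56.3%, 56.8% and 51.2%. The gap to genes of like length was thus widest in pollen, a difference that was not tested. The median level per length of the expressed single-exon genes was 5.67 CPM per kilobase in HS + TSAhigh, 5.74 in HS + TSAlow and 5.74 in pollen, against 8.27, 8.09 and 9.46 in genes of 2 or more exons.

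The share expressed was larger in longer length classes in each group. Of the 2378 single-exon genes under 500 bases, 24.1% were expressed in HS + TSAhigh, 27.0% in HS + TSAlow and 20.2% in pollen. Of the 4512 genes of 500 to under 1000 bases, it was 45.1%, 44.2% and 31.3%, which is the class where pollen lay furthest below the embryogenic structures. Of the 3797 genes of 1000 to under 2000 bases, it was 55.3%, 53.0% and 44.6%. Of the 871 genes of 2000 bases or more, it was 59.2%, 53.2% and 49.5%. Genes of 2 or more exons were expressed more often than single-exon genes in each class and each group.

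Some members were on in the embryogenic structures and off in pollen. Taking at least 1 CPM per kilobase as on and under 0.1 as off, 440 single-exon genes (3.81%) were on in both HS + TSA groups and off in pollen, and 8 (0.0692%) were on in pollen and off in both. In genes of 2 or more exons, the same classes held 1040 (2.17%) and 39 (0.0814%). Between the doses, 57 single-exon genes (0.493%) were on in HS + TSAhigh and off in HS + TSAlow, and 37 (0.32%) the other way. In genes of 2 or more exons these were 105 (0.219%) and 96 (0.2%). Single-exon genes on in all groups numbered 3437 (29.7%), against 25671 (53.6%) of the genes of 2 or more exons. No count at all was found for 1768 single-exon genes (15.3%), against 3796 (7.92%) of the others.

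Of the single-exon genes, 7365 (63.7%) had enough counts to be tested, against 37899 (79.1%) of genes of 2 or more exons. Of the 4193 that were not tested, 1768 had no counts. A gene could pass this filter on the counts of 1 group alone, so the counts of calls below describe the genes that passed and not all members. Both comparisons with pollen share the pollen libraries and are given side by side.

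More single-exon genes rose than fell against pollen at each dose. In HS + TSAhigh over pollen, 2606 of 7365 tested were higher (35.4%, against a background of 27.5% over all 45264 genes tested) and 821 lower (11.1%, background 18.8%), at an adjusted p of at most 0.05 in edgeR's quasi-likelihood test, where 46.2% of all genes were called in either direction. In HS + TSAlow over pollen, 2521 were higher (34.2%, background 26.4%) and 671 lower (9.11%, background 17.4%), with 43.7% of all genes called in either direction. Single-exon genes were thus called about as often as all genes, 46.5% in HS + TSAhigh and 43.3% in HS + TSAlow, but differed in direction. The calls were large: 2428 of those higher and 665 of those lower in HS + TSAhigh differed by at least 2-fold (backgrounds 23.4% and 12.2%), as did 2318 and 484 in HS + TSAlow (backgrounds 21.6% and 9.8%). The median log2 fold change of the single-exon genes called higher was 3.96 in HS + TSAhigh and 3.37 in HS + TSAlow, against 2.8 and 2.39 over all genes called higher. For those called lower it was −1.98 and −1.41, against −1.28 and −1.08. Over all single-exon genes tested the median was 0.68 in HS + TSAhigh over pollen (0.09 over all genes) and 0.65 in HS + TSAlow over pollen (0.10 over all genes). Of the members tested, 428 had 0 counts in all 3 pollen libraries, and 394 of these were called higher in HS + TSAhigh and 341 in HS + TSAlow. With such genes set at the bound that 3 counts over the group allow, the medians remained 0.68 and 0.65. This setting could hardly move them, because most of these genes were called higher. Without the low-count filter the medians were 0.54 in HS + TSAhigh and 0.50 in HS + TSAlow (0.0 over all genes in both). The number lower in HS + TSAlow was 438 without pollen library 1 (5.66%, background 13.2%) and 442 without pollen library 2 (5.71%, background 12.2%).

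The excess of higher calls was also present beside genes of the same length and level. Genes of 2 or more exons were weighted to the single-exon genes in 10 classes of exon length by 10 classes of level, where level is the mean over groups of log2(CPM per kilobase + 0.1). So weighted, 26.8% of them were higher and 15.4% lower in HS + TSAhigh over pollen, and 27.5% higher and 11% lower in HS + TSAlow over pollen. Single-exon genes thus lay 8.55 percentage points above them among higher calls and 4.24 points below among lower calls in HS + TSAhigh, and 6.71 points above and 1.89 below in HS + TSAlow. The weighted medians were 0.21 in HS + TSAhigh and 0.30 in HS + TSAlow. This weighting is a description, and no test was made between the lists.

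From 5 exons upward, the share of genes called higher than pollen was smaller in each class of more exons, and it was largest in single-exon genes. Genes of 2 exons, which lie just outside the definition, were intermediate: 29.8% were higher and 15.7% lower in HS + TSAhigh over pollen, and 31.3% higher and 11.4% lower in HS + TSAlow over pollen. Genes of 20 or more exons were at the other end, with 15.3% higher and 26.2% lower in HS + TSAhigh, and 10.3% higher and 38.5% lower in HS + TSAlow. Classes of more exons also held longer genes, and the part of length in this order was not tested.

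**Figure D2:**
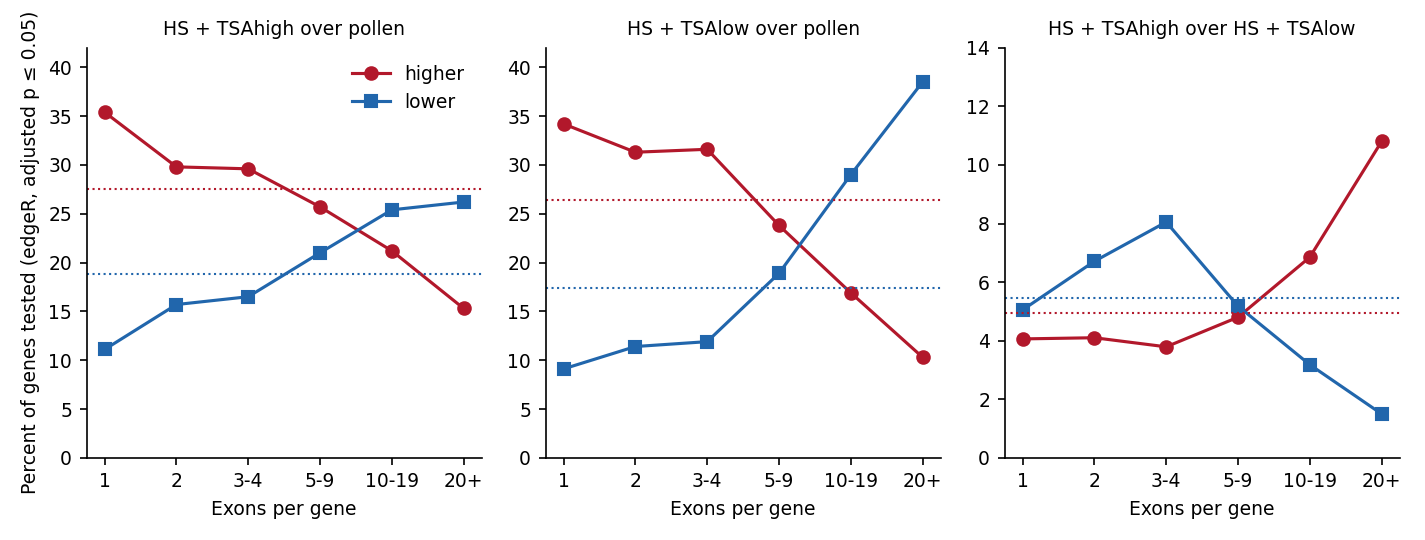
Percent of genes tested that were called higher (circles) or lower (squares) by edgeR, by number of exons per gene, in each comparison. Dotted lines give the percent over all genes tested, and single-exon genes have the highest share called higher against pollen (35.4% in HS + TSAhigh, 34.2% in HS + TSAlow). The dose panel has its own, smaller axis.

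The difference from length-weighted genes of 2 or more exons was not the same at each level. In the highest of 5 equal classes of level (10.4 CPM per kilobase and above), 36.5% of single-exon genes were higher in HS + TSAhigh over pollen, against 23.5% of the weighted others, and 43.4% were higher in HS + TSAlow over pollen, against 32.4%. In the next to lowest class (0.43 to 1.21 CPM per kilobase) the lists were close, with 36.9% against 33.9% in HS + TSAhigh and 33.6% against 32.4% in HS + TSAlow. By length, single-exon genes of 500 to under 1000 bases were called higher most often, at 42.4% in HS + TSAhigh and 43.9% in HS + TSAlow, against 27.4% and 35.0% of genes of 2 or more exons in that class. Single-exon genes of 2000 bases or more were called higher least often in HS + TSAlow (22.3%), while in HS + TSAhigh those under 500 bases were (24.6%).

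**Figure D3:**
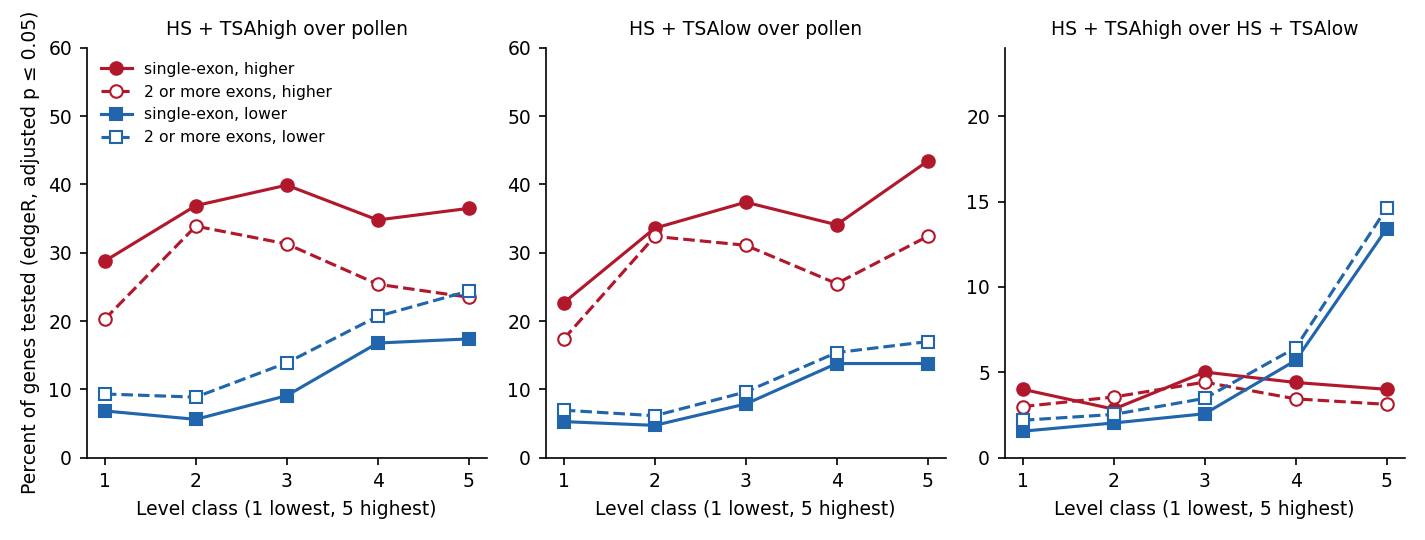
Percent of genes called higher (circles) or lower (squares) in 5 classes of level, from the lowest (1) to the highest (5), for single-exon genes (filled) and for genes of 2 or more exons weighted to their lengths (open). Against pollen the filled circles lie above the open ones in each class, closest in class 2, and the filled squares below the open ones. The dose panel has its own, smaller axis.

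Each library showed the shift. The median over tested single-exon genes of the log2 ratio to the pollen mean, on log2(CPM + 0.1), was 0.36, 0.52 and 0.44 in HS + TSAhigh libraries 1 to 3 and 0.45, 0.48, 0.49 and 0.36 in HS + TSAlow libraries 1 to 4. In genes of 2 or more exons it was 0.06, −0.05 and −0.07 in HS + TSAhigh and −0.01 to 0.00 in HS + TSAlow. All 7 libraries were thus positive for single-exon genes and near 0 for the others.

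Under the naming rule, 909 single-exon genes rose (12.3% of those tested, against 11.8% of all genes tested) and 259 fell (3.52%, against 9.67%) at both doses, with no overlap between the 7 HS + TSA libraries and the pollen libraries and a mean of at least 10 CPM in some group. The share that rose was thus near that of all genes. The genes were ranked by the smaller of their fold changes at the doses, and the first 2 in each direction follow. C03p71460.1_BnaDAR (C03:54418161-54418937, 777 bases) had 8.19, 61.1 and 63.0 CPM in HS + TSAhigh, 63.0, 102.0, 129.0 and 69.7 CPM in HS + TSAlow, and 0 counts in all 3 pollen libraries. It was at least 4287.7-fold higher in HS + TSAhigh and at least 9353.8-fold higher in HS + TSAlow than the floor of 3 counts over the pollen group (edgeR adjusted p = 0.000273 and 0.000222). C05p07380.1_BnaDAR (C05:3705432-3706187, 756 bases) had 57.8, 239.0 and 275.0 CPM in HS + TSAhigh and 190.0, 567.0, 451.0 and 164.0 CPM in HS + TSAlow, while pollen held 2 counts in 1 library and 0 in the others. The ratio to pollen was 28062.1 in HS + TSAhigh (exact 95% interval for counting error alone 7767.8 to 231727.0) and 53597.2 in HS + TSAlow (14836.8 to 442577.4), with edgeR adjusted p of 2.68e-05 and 2.48e-05.

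The first 2 of the genes that fell kept counts in each HS + TSA library. A05p00720.1_BnaDAR (A05:468342-470023, 1682 bases) had 1.16, 0.637 and 0.363 CPM in HS + TSAhigh, 2.46, 1.45, 1.03 and 3.41 CPM in HS + TSAlow, and 60.8, 47.6 and 60.6 CPM in pollen. Its log2 fold change over pollen was −6.28 (SE 0.54) in HS + TSAhigh and −4.75 (SE 0.44) in HS + TSAlow (edgeR adjusted p = 6.21e-06 and 1.27e-05). A04p19670.1_BnaDAR (A04:14843824-14844534, 711 bases) had 1.28, 1.69 and 0.528 CPM in HS + TSAhigh, 2.05, 1.54, 0.885 and 1.37 CPM in HS + TSAlow, and 23.8, 48.0 and 45.0 CPM in pollen. Its log2 fold change was −5.06 (SE 0.49) in HS + TSAhigh and −4.73 (SE 0.42) in HS + TSAlow (edgeR adjusted p = 1.04e-05 and 7.45e-06). For both genes each HS + TSA library was more than 10 times below each pollen library.

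The most abundant single-exon gene per length was the same at both doses and another in pollen. A04p09430.1_BnaDAR (A04:6944632-6946391, 1760 bases) had 7114.3, 5118.1 and 3238.2 CPM in HS + TSAhigh, 4782.9, 7472.0, 3298.0 and 4274.0 CPM in HS + TSAlow, and 2023.9, 2717.4 and 2098.5 CPM in pollen. It was higher than in pollen at both doses, by 1.18 (SE 0.32) in HS + TSAhigh and 1.12 (SE 0.31) in HS + TSAlow on the log2 scale (edgeR adjusted p = 0.0123 and 0.0131), the second with adjusted p of 0.0548 without pollen library 1 and 0.0517 without pollen library 3. The most abundant in pollen was A03p23470.1_BnaDAR (A03:10569662-10569852, 191 bases), with 12.4, 51.1 and 6.55 CPM in HS + TSAhigh, 421.0, 274.0, 541.0 and 189.0 CPM in HS + TSAlow, and 895.0, 1109.1 and 750.0 CPM in pollen. No group overlapped another. It fell in HS + TSAhigh against pollen, by 5.30 on the log2 scale (SE 0.82, edgeR adjusted p = 0.00078), and against HS + TSAlow, by 3.93 (SE 0.75, adjusted p = 0.0154). In HS + TSAlow over pollen its log2 fold change of −1.37 (SE 0.63) did not pass the test (edgeR adjusted p = 0.112), with adjusted p of 0.00432 in limma-voom, 0.00622 with only these groups in the fit and 0.00811 without HS + TSAhigh library 2.

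**Figure D4:**
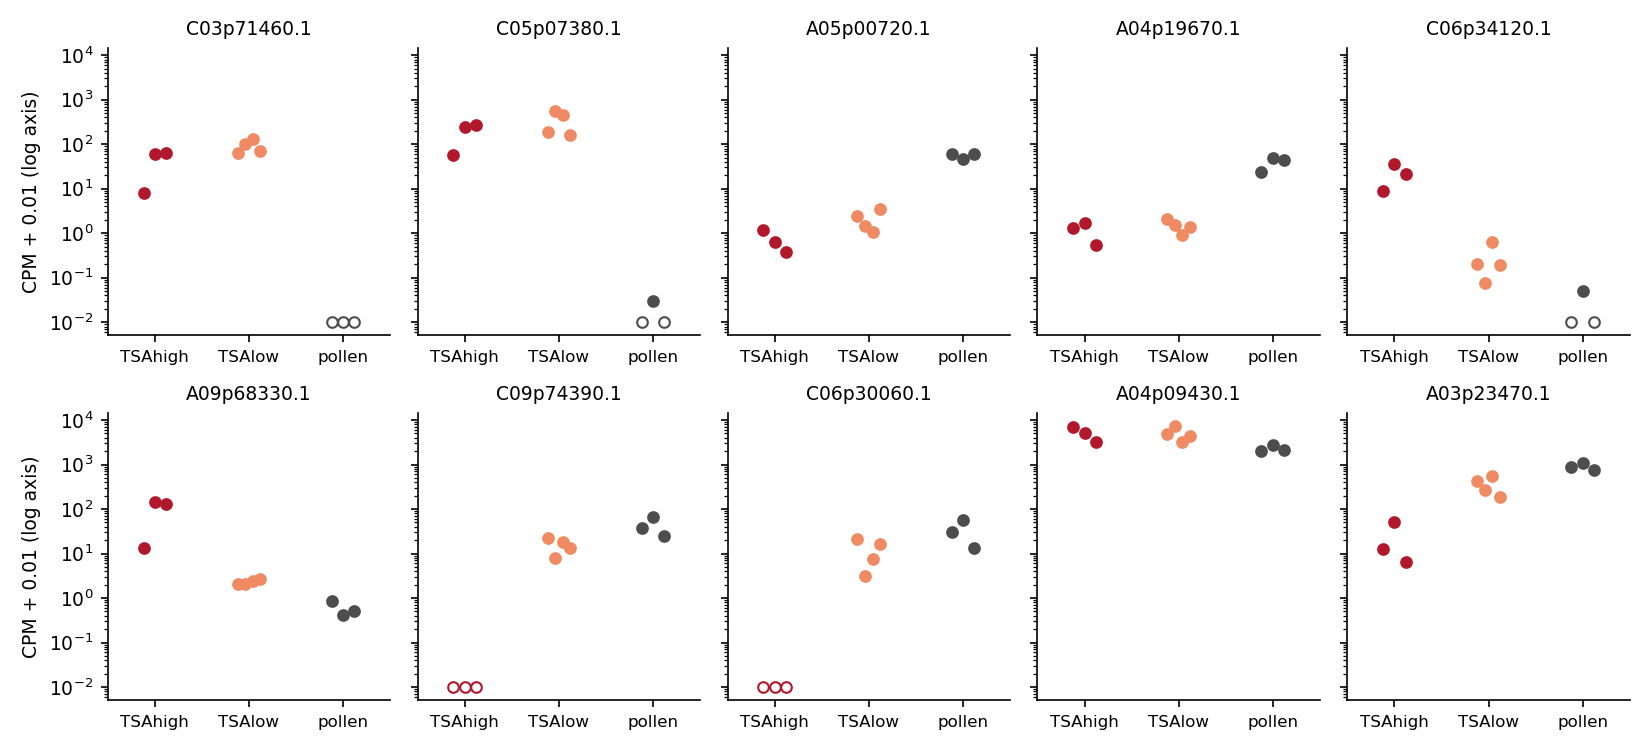
CPM + 0.01 on a log axis for the 10 named single-exon genes in each library, by group. Open circles on the lowest line are libraries with 0 counts. C03p71460.1 lies at 0 in all pollen libraries, while C09p74390.1 and C06p30060.1 lie at 0 in all HS + TSAhigh libraries.

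The most abundant gene stood in a run of 8 neighbouring single-exon genes at A04:6942606-6967677, the run with the highest summed level. The 8 genes summed to 8420.0, 6371.5 and 3737.6 CPM in HS + TSAhigh, 7668.7, 10583.5, 4674.0 and 6927.9 CPM in HS + TSAlow, and 2577.5, 3327.6 and 2590.4 CPM in pollen. No HS + TSA library overlapped a pollen library. By edgeR, 4 of the 8 were higher and 0 lower in HS + TSAhigh over pollen, 6 higher and 0 lower in HS + TSAlow over pollen, and 3 lower in HS + TSAhigh over HS + TSAlow. A further run of 4 at A04:6917740-6933402 averaged 556.0 CPM in HS + TSAhigh, 1213.2 in HS + TSAlow and 178.0 in pollen, with all 4 genes called higher at both doses. Single-exon genes in runs of 3 or more passed the count filter less often than those alone (54.9% against 65.5%) and more often had no counts (19.3% against 14.3%). The tested ones were called higher at 37.3% against 34.7% in HS + TSAhigh over pollen and 36.6% against 33.5% in HS + TSAlow over pollen.

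Between the doses, the single-exon genes were close to the background. In HS + TSAhigh over HS + TSAlow, 299 of 7365 were higher (4.06%, background 4.94%) and 372 lower (5.05%, background 5.46%) at the same adjusted p in edgeR. Before adjustment, 1833 single-exon genes had a p under 0.05. The median log2 fold change was 0.02, the same as over all genes tested. With at least 2-fold, 251 were higher and 270 lower (backgrounds 3.14% and 3.19%). Genes of 2 or more exons weighted to the same length and level were higher in 3.5% and lower in 5.73%. The genes called higher had medians of 12.3 CPM in HS + TSAhigh, 3.18 CPM in HS + TSAlow and 1.1 CPM in pollen, and a median length of 1259 bases. Those called lower had medians of 4.31, 15.5 and 12.7 CPM in the same groups and a shorter median length of 761 bases. This order by length was also present in genes of 2 or more exons. Under 500 bases, 1.49% of them were higher and 11.5% lower, and at 2000 bases or more 9.36% and 1.89%. With the replicate number as a block, 130 single-exon genes were higher (1.77%, background 2.58%) and 254 lower (3.45%, background 3.68%). Number 4 occurs only in HS + TSAlow, so its library adds nothing to the blocked dose comparison. Without that library and without the block, 178 were higher (2.44%, background 3.11%) and 279 lower (3.82%, background 4.31%).

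The number of dose calls rested on single libraries, in single-exon genes and over all genes tested (background) alike. The count of single-exon genes higher in HS + TSAhigh was 534 without its library 1 (6.93%, background 6.87%). It was 121 without its library 2 (1.58%, background 2.22%) and 131 without its library 3 (1.7%, background 2.4%). It was 114 without HS + TSAlow library 1 (1.57%, background 2.02%) and 178 without HS + TSAlow library 4 (2.44%, background 3.11%). The count lower was 191 without HS + TSAhigh library 2 (2.5%, background 2.91%) and 190 without its library 3 (2.47%, background 2.79%). It was 154 without HS + TSAlow library 1 (2.12%, background 2.54%). Without both HS + TSAlow libraries 1 and 4, 69 were higher (0.895%, background 1.37%) and 166 lower (2.15%, background 2.88%).

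The 2 genes ranked first in each direction between the doses are given next. C06p34120.1_BnaDAR (C06:36433392-36434186, 795 bases) had 8.69, 35.2 and 21.1 CPM in HS + TSAhigh and 0.19, 0.0657, 0.637 and 0.18 CPM in HS + TSAlow, a log2 fold change of 6.33 (SE 0.84, edgeR adjusted p = 0.00309). In pollen it had 4 counts in 1 library and 0 in the others. A09p68330.1_BnaDAR (A09:52915408-52916860, 1453 bases) had 13.1, 144.0 and 129.0 CPM in HS + TSAhigh and 2.08, 2.07, 2.35 and 2.63 CPM in HS + TSAlow, with 0.846, 0.405 and 0.496 CPM in pollen. Its dose log2 fold change was 5.38 (SE 0.70, edgeR adjusted p = 0.00406), and HS + TSAhigh library 1 was about 10 times below libraries 2 and 3. C09p74390.1_BnaDAR (C09:65119855-65120476, 622 bases) had 0 counts in all 3 HS + TSAhigh libraries, 22.8, 7.91, 18.5 and 13.1 CPM in HS + TSAlow, and 37.0, 65.8 and 25.1 CPM in pollen. It was at least 965.0-fold lower in HS + TSAhigh than in HS + TSAlow (edgeR adjusted p = 0.000619). C06p30060.1_BnaDAR (C06:33274274-33274705, 432 bases) likewise had 0 counts in all HS + TSAhigh libraries, 21.5, 3.12, 7.56 and 16.2 CPM in HS + TSAlow, and 30.8, 55.5 and 13.3 CPM in pollen. It was at least 739.0-fold lower in HS + TSAhigh than in HS + TSAlow (edgeR adjusted p = 0.00641), with an adjusted p of 0.096 in limma-voom. Of the single-exon genes tested, 95 had 0 counts in all HS + TSAhigh libraries and 65 in all HS + TSAlow libraries.

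Single-exon genes on A chromosomes were called higher than pollen somewhat more often than those on C chromosomes. In HS + TSAhigh over pollen, 1270 of 3354 tested on A (37.9%) and 1306 of 3930 on C (33.2%) were higher, and 11.3% and 11.1% were lower. In HS + TSAlow over pollen, 1217 (36.3%) on A and 1270 (32.3%) on C were higher, and 9.63% and 8.73% were lower. Genes of 2 or more exons had the same order, with 27.8% on A and 24.3% on C higher in HS + TSAhigh, and 26.3% and 23.4% in HS + TSAlow. On A, 47.1% of single-exon genes were expressed in HS + TSAhigh, 45.5% in HS + TSAlow and 35.0% in pollen, and on C 44.0%, 43.4% and 34.8%. Members on A took 5.81% ± 0.313 of the counts in HS + TSAhigh (SD, n = 3), 5.99% ± 0.358 in HS + TSAlow (SD, n = 4) and 3.86% ± 0.13 in pollen (SD, n = 3). Members on C took 5.52% ± 0.458, 5.67% ± 0.141 and 4.0% ± 0.159. So A members took the larger mean share in the embryogenic structures and C members in pollen. The SDs of A and C overlapped in all groups, but both shares come from the same libraries. These SDs do not measure the difference between A and C within a library, which was not worked out. Between the doses, 4.47% on A and 3.74% on C were higher and 5.04% and 5.06% lower. The dose counts on A and C moved with the same libraries as the total.

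By whole-chromosome values, C02 stood apart from the other chromosomes. Of its 338 tested single-exon genes, 20.1% were higher than pollen in HS + TSAhigh, against 31.9% to 41.2% on the other 18 chromosomes, and the median log2 fold change was −0.21, against 0.41 to 1.00. In HS + TSAlow over pollen, 24% were higher, against 29.2% to 39.6%, with a median of 0.31, against 0.42 to 0.90. Between the doses the C02 median was −0.47, against −0.07 to 0.16, and 0.888% were higher, against 2.66% to 5.96%. The 1813 tested C02 genes of 2 or more exons moved likewise, with a dose median of −0.52, against −0.02 to 0.13 on the others. Without C02, 34.5% of single-exon genes on C were higher in HS + TSAhigh over pollen and 33.1% in HS + TSAlow over pollen.

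**Figure D5:**
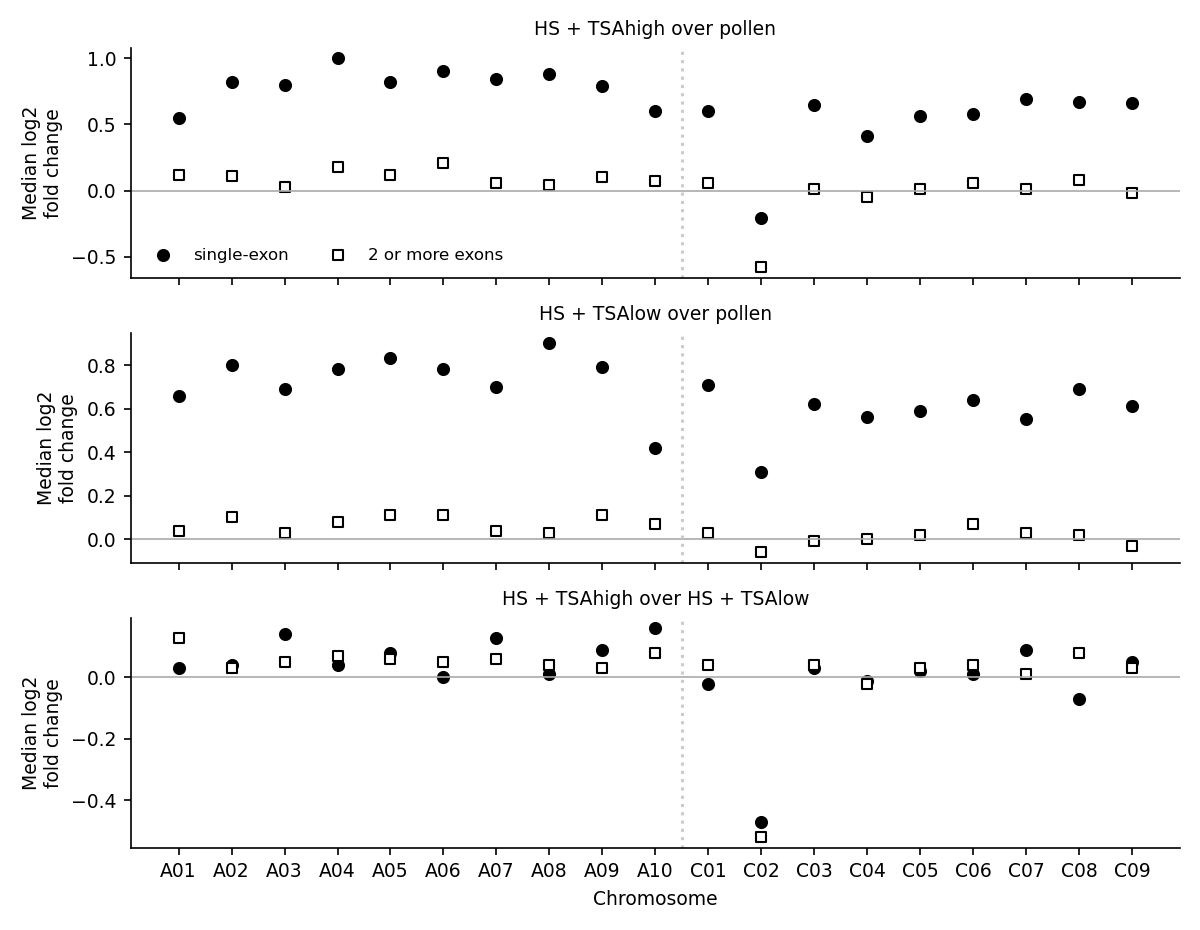
Median log2 fold change from edgeR over the tested single-exon genes (filled circles) and genes of 2 or more exons (open squares) of each chromosome, in each comparison. The dotted line parts A from C chromosomes, the panels have their own axes, and C02 has the lowest median in every panel, −0.47 for single-exon genes between the doses.

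The C02 values differed along the chromosome and between libraries. A split at base 45000000 was chosen after these values were seen. Beyond it, the median log2 ratio to the pollen mean over 98 tested single-exon genes was −2.64, −0.89 and −0.84 in HS + TSAhigh libraries 1 to 3, and −2.22, −0.06, 0.56 and −2.31 in HS + TSAlow libraries 1 to 4. HS + TSAhigh library 1 and HS + TSAlow libraries 1 and 4 thus lay far below the rest, and pollen libraries lay within −0.20 to 0.19 of their mean. The 489 genes of 2 or more exons there had −2.58, −1.35 and −1.10 in HS + TSAhigh, and −2.46, −0.18, 0.45 and −2.61 in HS + TSAlow. Up to base 45000000, the 240 single-exon genes had −0.11, −0.03 and −0.09 in HS + TSAhigh and 0.40, 0.52, 0.49 and 0.26 in HS + TSAlow, so that all 3 libraries of the high dose were lower than all 4 of the low dose. On the other chromosomes the values were 0.39, 0.54 and 0.46 in HS + TSAhigh and 0.46, 0.48, 0.48 and 0.38 in HS + TSAlow. Single- and multi-exon genes of C02 moved together in the same libraries, and what sets these libraries apart on C02 was not tested. Stretches of the other chromosomes were not split in this way. A run of 3 genes at C04:2353124-2367663 summed to 0 CPM in HS + TSAhigh library 1 and HS + TSAlow libraries 1 and 4. Its sums were 1.2 and 2.51 CPM in the other HS + TSAhigh libraries and 2.1 and 8.88 in the other HS + TSAlow libraries. Among HS + TSA libraries, runs at C04:3636960-3743423, C04:4201400-4229266, C04:6260867-6274004 and C04:6566425-6578426 were also lowest in the same libraries. The run at C04:4201400-4229266 summed to 0.171 CPM in HS + TSAhigh library 1 and to 0.19 and 0.18 CPM in HS + TSAlow libraries 1 and 4. The other HS + TSA libraries had 2.04 to 4.06 CPM. These runs were of low level, and this stretch was not tested. By contrast, a run of 5 at C04:10718787-10738248 had 67.9 to 75.0 CPM in HS + TSAhigh and 66.0 to 76.5 in HS + TSAlow.

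Single-exon genes inside introns of other genes were few. Of the 59 on the host's strand, 27 were tested, of which 7 were higher and 3 lower in HS + TSAhigh over pollen, and 4 higher and 2 lower in HS + TSAlow over pollen. Over all genes tested, 27.5% were higher and 18.8% lower in HS + TSAhigh and 26.4% and 17.4% in HS + TSAlow, and these few genes are not set apart from that. Where the host was tested too (22 genes), 2 were called the same way as the host and 4 the opposite way in HS + TSAhigh, and 1 and 2 in HS + TSAlow. Of the 34 on the other strand, 16 were tested, of which 5 were higher and 1 lower in HS + TSAhigh and 7 higher and 1 lower in HS + TSAlow. The kit does not mark the strand, so reads of such a gene and of its host's intron cannot be told apart.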

How the data were processed

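RNA from 3 HS + TSAhigh, 4 HS + TSAlow and 3 pollen samples was turned into cDNA by SMART-seq v4, without strand information. The deposited values are raw counts, summed by the authors over the exons of each gene (featureCounts) after STAR alignment to Darmor-bzh version 10. Versions differ between sources: Subread 1.5.2 and STAR 2.7.10a stand in the submitters' notes, and others in the paper. Both mates of most pairs were counted (77.8% of values between 20 and 199 were even), and PCR copies add to this, so intervals cover counting error alone. The authors' normalized counts and DESeq2 comparisons (fold changes and p-values) were not used, and 0 value columns lacked a sample.

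Of 61170 rows, 1712 exact repeats were dropped (415 single-exon). A gene was single-exon where its chromosome field held 1 entry. Counts were tested with edgeR 4.0.16 in R 4.3.3: filterByExpr (minimum count 10, minimum total 15), TMM scaling, robust quasi-likelihood fit of all 10 libraries and Benjamini-Hochberg adjustment over 45264 genes, called at 0.05. SE was computed as |log2 fold change|/√F. The test was checked on simulated data. Tables and figures were made with matplotlib 3.10.9, scipy 1.17.1, pandas 2.3.3 and numpy 2.4.6 under Python 3.11.15.

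Named genes were the 2 rising and 2 falling most at both doses without overlap, the 2 each way between the doses, and the most abundant per group, with means of at least 10 CPM for the changes. Members and lists were chosen with earlier results of these data known. Lists of families and cell markers could not be used without gene names. Alternatives were DESeq2 1.42.0, limma-voom (limma 3.58.1), other scalings, filters and thresholds, only the compared groups, a replicate block, read pairs, other class numbers, and each library left out. Leaving out runs, scaffolds or C02 was chosen after seeing the data. Biological replicates are named in the design, and the labels share replicate numbers. Deviations of same-numbered HS + TSAlow and HS + TSAhigh libraries correlated by 0.33, 0.13 and 0.194. The main dose test used group alone and no pairs, with the replicate block as an alternative. Some libraries of unlike number correlated as much (HS + TSAlow 4 with HS + TSAhigh 1 by 0.297, 3 with 2 by 0.181 and 2 with 3 by 0.176), so the numbers alone do not account for the pattern. HS + TSAlow 1 and 4 correlated by −0.232 to −0.176 with HS + TSAhigh 2 and 3, and HS + TSAlow 2 and 3 by −0.24 and −0.293 with HS + TSAhigh 1. Deviations from a group mean sum to 0, so some negative values must occur. The dose test did not model these sets, HS + TSAlow 1 and 4 with HS + TSAhigh 1 and the rest. Same-numbered libraries of pollen and the HS + TSA groups correlated by −0.00636 to 0.0545.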

Additional observations from a re-analysis of the deposited data

How the results depend on the processing

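Of 412 settings of the main counts, medians and shares, 346 stayed within the limits set (1.5 times for a count, 1 SD for a share or median), and of 384 settings of single genes and weighted shares, 372 did. At an adjusted p of 0.01, the genes lower than pollen numbered 445 in HS + TSAhigh and 304 in HS + TSAlow, and the dose calls 52 higher and 74 lower. The share over all genes at this threshold is not given here. With a filter of 50 counts in 3 libraries, the median log2 fold change over pollen was 0.47 in HS + TSAhigh and 0.50 in HS + TSAlow. Dose calls in DESeq2 were 626 higher and 640 lower of 7837 tested (A: 311 and 288, C: 308 and 343). These were 7.99% and 8.17%, against 9.16% and 8.3% of all genes. With only these groups in the fit, 237 of 7014 were lower (3.38%, background 3.4%). Without HS + TSAlow libraries 1 and 4, 69 were higher and 166 lower (A: 34 and 69, C: 34 and 97), with backgrounds of 1.37% and 2.88%. The replicate block, in which HS + TSAlow library 4 has no partner, gave 130 higher and 254 lower dose calls (backgrounds 2.58% and 3.68%). Against pollen, where same-numbered libraries correlated by at most 0.0545, it gave 2392 higher and 785 lower in HS + TSAhigh and 2275 and 525 in HS + TSAlow. It changed the call of no named gene. The share of higher among dose calls was 44.6%, and its side of an even split was not stable: it was 57.0% without HS + TSAhigh library 1, 53.4% in limma-voom and 52.2% with only these groups in the fit, against 33.9% under the block and 29.4% without HS + TSAlow libraries 1 and 4. Single-exon genes expressed in HS + TSAhigh, HS + TSAlow and pollen were 53.1%, 51.5% and 41.0% at 0.5 CPM per kilobase, and 35.9%, 35.2% and 27.8% at 2. The share of counts in HS + TSAhigh, HS + TSAlow and pollen was 10.4%, 10.6% and 7.47% without the 10 most abundant genes and 9.69%, 9.87% and 6.79% without runs of 3 or more.

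Leaving out each library in turn gave medians of 0.53 to 0.76 in HS + TSAhigh over pollen. It gave 2200 to 2638 higher (background 22.6% to 27.0%) and 612 to 907 lower (background 14.1% to 20.8%). In HS + TSAlow over pollen it gave medians of 0.54 to 0.73. There, 2103 to 2663 were higher (background 21.2% to 27.3%) and 438 to 795 lower (background 12.2% to 19.1%, A: 204 to 377). Between the doses, leaving out each library gave 114 to 534 higher (A: 59 to 259, C: 54 to 270) and 154 to 403 lower (A: 66 to 178, C: 87 to 219). The backgrounds were 2.02% to 6.87% higher and 2.54% to 7.06% lower. The dose median ran from −0.02 to 0.04 and was −0.01 without HS + TSAhigh library 2 and −0.02 without library 3. The causes of these changes were not tested. At library totals of 51838498 counts or more, counting error was small for shares, and it limited only genes of few counts.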
